A study of Mus musculus with 4 samples.

Results

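Exosomes released by adipose tissue (AT-Exos) were examined here for 5 mature miRNA strands from 2 loci, both strands of miR-126a, both strands of miR-221 and the 3p strand of miR-222. The strands were chosen by name, and each was represented by 1 sequence among the 697 sequences with a mouse miRNA name that the table of small RNAs lists, so that all 5 members were analysed. Small RNA was sequenced from exosomes that shredded visceral white adipose tissue (vWAT-Exos) or brown adipose tissue (BAT-Exos) shed into culture medium. The tissue came from wild-type C57BL/6 (B6) mice, 6 weeks old by the labels, given a high-fat diet (HFD) or a low-fat diet (LFD) for 4 months. There were 4 libraries, HFD vWAT-Exos, LFD vWAT-Exos, HFD BAT-Exos and LFD BAT-Exos, 1 for each combination. With 1 library per condition there was no replicate error for any value and no test of an effect of diet or depot, and every difference below is a difference between 2 libraries. The sources do not say whether a library pooled several mice. The labels write WAT, and the study's methods give the depot as visceral.

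miR-126 lies within Egfl7, the gene of a protein that endothelial cells secrete, and is the best known miRNA of these cells. It sustains signalling by vascular growth factors by repressing the inhibitors Spred1 and Pik3r2, and it also represses the adhesion molecule Vcam1. miR-221 and miR-222 are made from neighbouring precursors, repress the receptor Kit and the cell cycle inhibitor Cdkn1b, and are known for restraining endothelial growth and for promoting growth of vascular smooth muscle. Neither locus is private to endothelium. miR-126 is also found in platelets and blood stem cells, and miR-221 and miR-222 are known to decline as preadipocytes become fat cells.

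The sequences are shown because the seed, which guides a miRNA to its targets, separates the members into families. Each is printed as the authors' table lists it, in DNA letters, with the seed (bases 2 to 8) in capitals.
mmu-miR-126a-3p: tCGTACCGtgagtaataatgc
mmu-miR-126a-5p: cATTATTActtttggtacgcg
mmu-miR-221-3p: aGCTACATtgtctgctgggttt
mmu-miR-221-5p: aCCTGGCAtacaatgtagattt
mmu-miR-222-3p: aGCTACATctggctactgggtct
The 5 strands carried 4 different seeds, since miR-221-3p and miR-222-3p share theirs. These 2 strands were identical over their first 8 bases and at 11 of 22 positions when compared without a gap. A gap after base 8 would line up more of their later bases, so this count understates their likeness. Whether reads of one were taken for the other was not tested. The listed miR-126a-3p and miR-221-3p ended 1 base before the mature form of RefSeq and the listed miR-221-5p 4 bases before it, while miR-222-3p matched it in full. Of the 5 strands, 4 were matched to RefSeq. Among all 1482 sequences listed, 1 other carried the seed of miR-221-3p and miR-222-3p, a predicted small RNA with a norm value of 19.0 in the HFD vWAT-Exos library and 0 in the other 3 libraries, and 0 others carried the seed of miR-126a-3p.

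The precursors are shown to place both strands of a locus. They come from RefSeq on GRCm38.p6, in RNA letters, with the listed strands in capitals.
Mir126a: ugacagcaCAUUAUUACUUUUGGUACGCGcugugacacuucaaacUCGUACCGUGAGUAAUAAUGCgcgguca
Mir221: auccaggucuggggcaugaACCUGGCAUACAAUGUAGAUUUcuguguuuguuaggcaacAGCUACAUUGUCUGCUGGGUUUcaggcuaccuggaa
Mir222: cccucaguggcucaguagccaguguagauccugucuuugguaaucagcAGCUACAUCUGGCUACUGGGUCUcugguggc
Mir126a lies at chr2:26591357-26591429 on the plus strand, inside Egfl7 (chr2:26580014-26593120). Of the 9 Egfl7 transcripts that span it in the GENCODE annotation, 8 hold it in an intron and 1 overlaps it with an exon. Its antisense partner Mir126b lies at chr2:26591363-26591420 on the minus strand. Mir221 (chrX:19146294-19146388) and Mir222 (chrX:19146893-19146971) lie on the minus strand, 504 bases apart, with 0 other annotated genes over that span. Strands of 1 precursor and the 2 neighbouring precursors are not independent of each other.

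Levels are given as the norm value, the normalized count that the authors deposited, whose scaling the sources do not describe. They also do not say whether a norm value covers the listed sequence alone or also forms with other ends. The norm value of 1 read was inferred from predicted entries as 2.37 in HFD vWAT-Exos, 1.36 in LFD vWAT-Exos, 0.706 in HFD BAT-Exos and 0.825 in LFD BAT-Exos, which puts the depth at about 1198338, 1898620, 8265829 and 6846014 reads in that order. The inference rested on 3, 2, 100 and 127 entries in the same order, of 3, 5, 112 and 146 predicted entries found in that library alone. It is least secure in vWAT-Exos. All 20 values of the 5 strands came out as whole reads within 0.01 of a read. Over all mouse sequences above 0, 86.9%, 85.3%, 86.5% and 86.1% of the values did so in these libraries, so the reads are approximate. Ranges in brackets below are 95% intervals for counting error in these approximate reads. PCR copies are not separate molecules, and the intervals leave out all variation between mice and between preparations. In such bulk samples, fewer exosomes from a cell type and less of a miRNA per exosome cannot be told apart. Of the brown fat miRNAs, 3 of 3 (miR-378a-3p, miR-193b-3p and miR-365-3p) were at least 2-fold lower in vWAT-Exos than in BAT-Exos on either diet. Over all miRNAs, 32.2% were lower by that fold on HFD and 29.4% on LFD. This list was chosen with earlier results of these data known, so it is no independent check of the libraries. Endothelial origin of the members could not be checked, since no messenger RNA was measured in these libraries.

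miR-126a was abundant in every library, and as deposited its highest level was in BAT-Exos on HFD. miR-126a-3p, the strand that represses Spred1 and Vcam1, had a norm value of 10536 in HFD vWAT-Exos, 13606 in LFD vWAT-Exos, 28076 in HFD BAT-Exos and 17511 in LFD BAT-Exos. As deposited, HFD BAT-Exos was highest and HFD vWAT-Exos lowest. As a share of all mouse norm values, however, this strand made up 0.376% of HFD vWAT-Exos, 0.533% of LFD vWAT-Exos, 0.499% of HFD BAT-Exos and 0.322% of LFD BAT-Exos, so both ends of the order turned. This strand ranked 46, 36, 25 and 36 among the mouse sequences of these libraries in the same order. miR-126a-5p, the other strand of the hairpin, known for repressing Dlk1 in endothelial cells, had 3514, 3424, 8949 and 5641. HFD BAT-Exos was again the highest, also by share at 0.159%, and the 2 vWAT-Exos values lay close together.

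miR-221-3p and miR-222-3p had the opposite arrangement, with every vWAT-Exos value above every BAT-Exos value. miR-221-3p had a norm value of 15875 in HFD vWAT-Exos, 26595 in LFD vWAT-Exos, 10857 in HFD BAT-Exos and 12064 in LFD BAT-Exos. It ranked 33 and 21 in the HFD and LFD vWAT-Exos libraries, and 48 and 43 in the HFD and LFD BAT-Exos libraries. miR-222-3p, with the same seed, was lower throughout at 1284, 2040, 411 and 546 in the same order of libraries. Both were highest in LFD vWAT-Exos and lowest in HFD BAT-Exos. miR-221-5p, the passenger strand, was the least abundant member at 178, 147, 19.1 and 47.9, and was the only one of the 5 under a norm value of 100 in BAT-Exos, where it rested on 27 reads on HFD and 58 on LFD. As shares of all mouse norm values, the 5 strands together made up 1.12% of HFD vWAT-Exos, 1.79% of LFD vWAT-Exos, 0.858% of HFD BAT-Exos and 0.658% of LFD BAT-Exos.

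**Figure D1:**
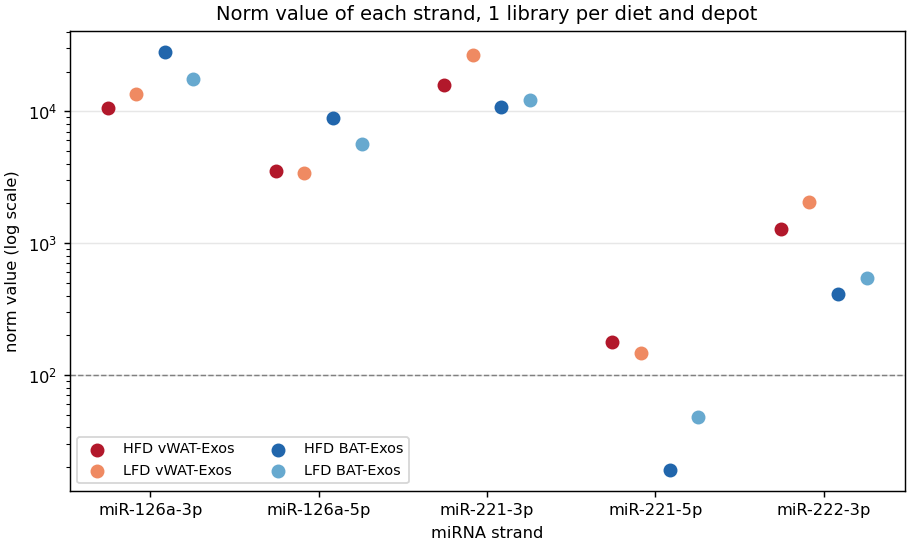
Norm value (vertical axis, log scale) of each of the 5 strands in the 4 libraries, 1 point per library, with a dashed line at the norm value of 100. As deposited, both miR-126a strands are highest in HFD BAT-Exos at 28076 and 8949, though by share of mouse norm values miR-126a-3p is highest in LFD vWAT-Exos (0.533%), while the vWAT-Exos points of miR-221-3p, miR-221-5p and miR-222-3p all lie above their BAT-Exos points.

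Ordered from the highest to the lowest library as deposited, the 5 strands gave 15 pairs of neighbouring libraries. In 13 of them the counting interval of the ratio left out 1. The other 2 were HFD and LFD vWAT-Exos for miR-126a-5p (ratio 1.03, 0.962 to 1.10) and for miR-221-5p (ratio 1.21, 0.888 to 1.64), which could not be put in order at this depth. Because counting error is small for the abundant strands, such an interval says nothing of whether a second library of the same condition would fall in the same place. Nor does it cover how the libraries were scaled. After scaling to equal sums, miR-126a-3p was at 1.66-fold in LFD vWAT-Exos over LFD BAT-Exos, the reverse of its deposited order.

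The effect of diet was compared within each depot. In vWAT-Exos the strands with the shared seed were lower on HFD. miR-221-3p was 0.597-fold (0.581 to 0.614) its LFD value and miR-222-3p 0.630-fold (0.570 to 0.695), with log2 fold changes of -0.74 and -0.67. Only 8.83% of the 283 miRNAs that reached 100 in either vWAT-Exos library had a lower log2 fold change than miR-221-3p, and 11.0% a lower one than miR-222-3p. miR-126a-3p was also lower on HFD, at 0.774-fold (0.747 to 0.802), whereas miR-126a-5p was at 1.03-fold (0.962 to 1.10), or at 0.935-fold after scaling to equal library sums. miR-221-5p was at 1.21-fold with an interval that held 1. The study's own fold of 2 and norm value of 100, reached here in at least 1 of the 2 libraries, was met by 0 of the 5 strands in either direction. Over all 283 miRNAs, 5.65% were higher and 4.59% lower by that rule, so that 0 of 5 did not stand apart from this background. The median log2 fold change was -0.37 for the 5 strands and 0.04 for the 283 miRNAs.

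In BAT-Exos the miR-126a strands were higher on HFD, at 1.60-fold (1.58 to 1.63) for miR-126a-3p and 1.59-fold (1.54 to 1.63) for miR-126a-5p. The 2 strands of the hairpin thus differed from LFD by nearly the same factor. Among the 283 miRNAs that reached this floor in a BAT-Exos library, 83.4% had a lower log2 fold change than miR-126a-3p and 82.3% a lower one than miR-126a-5p. miR-221-3p was at 0.900-fold (0.880 to 0.921) and miR-222-3p at 0.754-fold (0.673 to 0.844), both below 1 as in vWAT-Exos but nearer to it. miR-221-5p was at 0.398-fold (0.242 to 0.639), from values under the norm value floor in both libraries. By the same rule 0 of the 5 strands were counted as higher and 0 as lower, against 7.42% higher and 12.4% lower among the 283 miRNAs. The median log2 fold change was -0.15 for the 5 strands and 0.07 for all.

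Markers of other cells also differed between the same libraries, in lists chosen with earlier results of these data known. Over all miRNAs, 7.42% were at least 2-fold higher and 12.4% lower on HFD in BAT-Exos, and 5.65% and 4.59% in vWAT-Exos. In BAT-Exos, 5 of 5 striated muscle miRNAs were at least 2-fold higher on HFD, with a summed norm value of 21958 in HFD BAT-Exos against 4023 in LFD BAT-Exos. Of the leukocyte miRNAs, 2 of 4 were at least 2-fold lower on HFD (sum 2489 in HFD against 3987 in LFD BAT-Exos), as was 1 of 2 erythroid miRNAs, miR-144-3p, while miR-451a had 13822 in HFD and 10738 in LFD BAT-Exos. All 4 epithelial miRNAs that reached 100 there were lower on HFD, and miR-375-3p was listed at 0 in both BAT-Exos libraries. In vWAT-Exos, 5 of 6 epithelial miRNAs were at least 2-fold higher on HFD (sum 4962 against 1744 on LFD), and 0 of the leukocyte, erythroid, striated muscle and smooth muscle miRNAs that reached 100 passed the fold in either direction. The part of these cells in the values of the 5 members was not tested.

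The effect of depot was compared within each diet. miR-221 and miR-222 strands were higher in vWAT-Exos than in BAT-Exos on either diet. miR-221-3p was 1.46-fold (1.42 to 1.5) higher in HFD vWAT-Exos than in HFD BAT-Exos, and 2.20-fold (2.16 to 2.25) higher in LFD vWAT-Exos than in LFD BAT-Exos. miR-222-3p was 3.12-fold (2.77 to 3.52) higher on HFD and 3.74-fold (3.41 to 4.10) higher on LFD. For miR-221-5p the folds were 9.33 (5.94 to 15.1) on HFD and 3.07 (2.21 to 4.30) on LFD, from few reads in BAT-Exos. These directions were the same under the 3 other scalings of the libraries that were tried, but none of these could have turned them. Both scalings to sums raised vWAT-Exos over BAT-Exos. Median-of-ratios scaling left the median log2 fold change of all miRNAs at -0.21 on HFD and -0.19 on LFD, against -0.27 and -0.19 as deposited.

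miR-126a strands had lower norm values in vWAT-Exos than in BAT-Exos, and the size of that difference depended on the diet and on how the libraries were scaled. On HFD, miR-126a-3p was at 0.375-fold (0.364 to 0.387) and miR-126a-5p at 0.393-fold (0.372 to 0.414) of the BAT-Exos values. On LFD they were at 0.777-fold (0.759 to 0.796) and 0.607-fold (0.580 to 0.635). The BAT-Exos libraries had larger sums of norm values, 5832550 on HFD and 5650701 on LFD, against 2839846 and 2585590 in vWAT-Exos, and miR-378a-3p alone contributed 2080467 and 2108530 in BAT-Exos. Scaling to equal sums of the mouse sequences therefore moved the median log2 fold change of all miRNAs from -0.27 to 0.73 on HFD and from -0.19 to 0.90 on LFD. Under it, miR-126a-3p was at 0.754-fold on HFD and at 1.66-fold on LFD, so the direction on LFD turned. With miR-378a-3p and miR-21a-5p left out of the sums it was at 0.580-fold on HFD and 1.24-fold on LFD, and under median-of-ratios scaling at 0.393-fold and 0.774-fold.

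**Figure D2:**
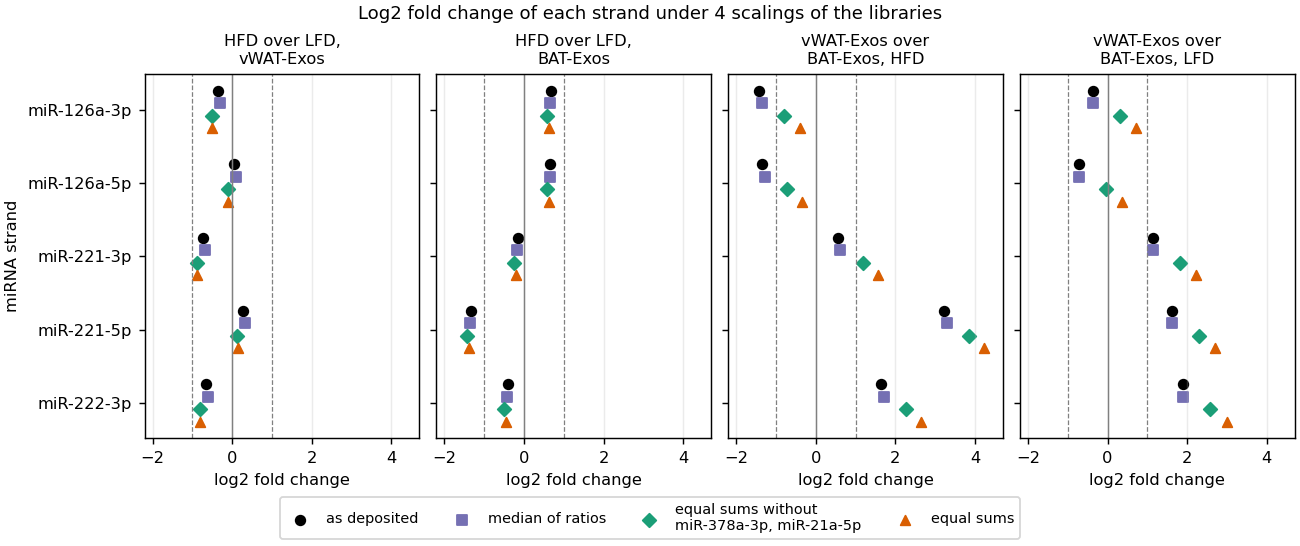
Log2 fold change (horizontal axis, no pseudocount) of each strand in the 4 comparisons, with the libraries as deposited and under 3 other scalings. Dashed lines mark a 2-fold difference. The markers of miR-221-3p, miR-221-5p and miR-222-3p stay right of 0 in both depot comparisons, while those of miR-126a-3p lie on either side of 0 on LFD, between -0.37 and 0.73.

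Relative to the median log2 fold change of all miRNAs in the same comparison, which each scaling shifted by nearly as much as the members, miR-126a-3p lay at -1.14 on HFD and closer to the median, at -0.18, on LFD. The differences from the median of miR-126a-5p were -1.08 on HFD and -0.53 on LFD. Those of miR-221-3p were 0.82 and 1.33, and those of miR-222-3p 1.91 and 2.09, on HFD and LFD in that order. Thus miR-221-3p and miR-222-3p lay above the median of vWAT-Exos over BAT-Exos on both diets.

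By the rule of fold and norm value, 2 of 5 strands (miR-221-5p and miR-222-3p) were counted as higher in HFD vWAT-Exos than in HFD BAT-Exos and 2 of 5 (both of miR-126a) as lower. Among the 307 miRNAs compared there, 30.6% were higher and 32.2% lower. On LFD, 3 of 5 were counted as higher (miR-221-3p, miR-221-5p and miR-222-3p) and 0 as lower, against 23.4% and 29.4% of 303 miRNAs. The 3 higher strands come from 1 pair of neighbouring precursors. A 2-fold difference between the depots was thus common in these libraries and not particular to the members. The shares of the calls among all miRNAs that were upward also shifted with scaling to equal sums, to 71.0% from 48.7% as deposited on HFD and to 81.0% from 44.4% on LFD, and on HFD the members' calls became 3 higher and 0 lower. In the diet comparison of vWAT-Exos, the same scaling made 32.5% of the calls upward in place of 55.2%. With miR-378a-3p and miR-21a-5p left out of the sums, the upward shares were 64.0% between the depots on HFD, 70.1% between them on LFD and 36.4% between the diets in vWAT-Exos.

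**Figure D3:**
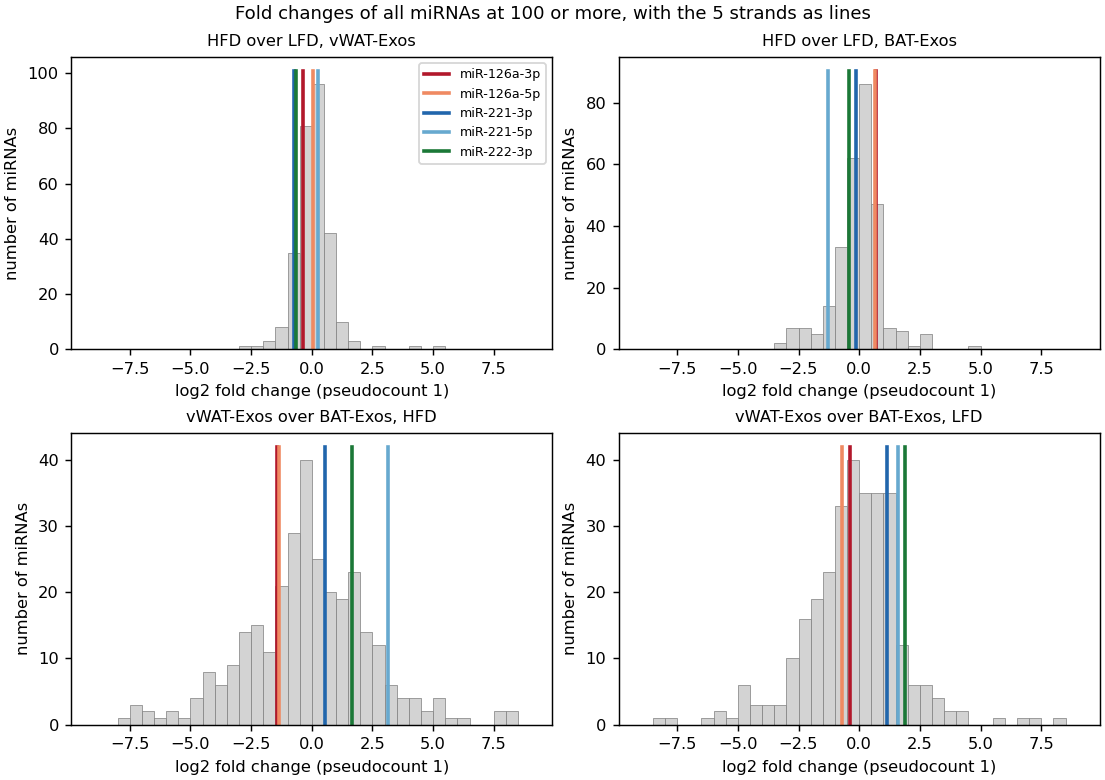
Number of mouse miRNAs (vertical axis) by log2 fold change (horizontal axis, pseudocount 1) in each comparison, counting those at a norm value of 100 or more in at least 1 of the 2 libraries, with each of the 5 strands as a coloured line. The diet panels are narrow and the depot panels wide, and miR-126a-3p lies at -1.41 on HFD and -0.36 on LFD in the depot panels. miR-221-5p is drawn in the BAT-Exos diet panel although it is below 100 in both libraries.

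Ratios of 2 strands within a library do not depend on how the library was scaled. miR-221-3p over miR-126a-3p was 1.51 (1.45 to 1.57) in HFD vWAT-Exos, 1.95 (1.91 to 2.0) in LFD vWAT-Exos, 0.387 (0.380 to 0.394) in HFD BAT-Exos and 0.689 (0.675 to 0.704) in LFD BAT-Exos. miR-221-3p thus exceeded miR-126a-3p in both vWAT-Exos libraries and was below it in both BAT-Exos libraries. The ratio was 3.90-fold (3.74 to 4.06) higher in vWAT-Exos than in BAT-Exos on HFD and 2.84-fold (2.75 to 2.93) on LFD. It was also lower on HFD in each depot, at 0.771-fold (0.737 to 0.806) of LFD in vWAT-Exos and 0.561-fold (0.546 to 0.577) in BAT-Exos. miR-222-3p over miR-126a-3p followed the same order of libraries, with 0.122, 0.150, 0.0147 and 0.0312 in HFD vWAT-Exos, LFD vWAT-Exos, HFD BAT-Exos and LFD BAT-Exos. These ratios depend on how readily each strand is ligated and amplified, so that a ratio of 1 is not equal numbers of molecules. Whether that bias was the same in the 4 libraries was not tested.

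The neighbours miR-221-3p and miR-222-3p did not keep 1 proportion across the depots. miR-221-3p was 12.4 times miR-222-3p (11.3 to 13.5) in HFD vWAT-Exos and 13.0 times (12.4 to 13.7) in LFD vWAT-Exos, against 26.4 times (24.3 to 28.7) in HFD BAT-Exos and 22.1 times (20.5 to 23.9) in LFD BAT-Exos. Within a depot the values lay closer. The ratio on HFD was 0.948-fold (0.856 to 1.05) that on LFD in vWAT-Exos and 1.19-fold (1.07 to 1.34) in BAT-Exos. The other strand of the second precursor, miR-222-5p, had a norm value of 40.3 in HFD vWAT-Exos, 55.8 in LFD vWAT-Exos, 0 in HFD BAT-Exos and 4.13 in LFD BAT-Exos, so it too was lowest in BAT-Exos. A count of 0 in HFD BAT-Exos allows a norm value of up to 2.12, the value of 3 reads.

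Arm use at the miR-126a hairpin was alike in 3 libraries. miR-126a-3p over miR-126a-5p was 3.0 (2.83 to 3.18) in HFD vWAT-Exos, 3.14 (3.08 to 3.20) in HFD BAT-Exos and 3.10 (3.02 to 3.19) in LFD BAT-Exos, whereas LFD vWAT-Exos stood higher at 3.97 (3.80 to 4.15). In vWAT-Exos the ratio on HFD was 0.754-fold (0.701 to 0.812) that on LFD, and in BAT-Exos it was 1.01-fold (0.977 to 1.05). The strand antisense to this hairpin, miR-126b-5p, was at 0 in both vWAT-Exos libraries, 4.94 in HFD BAT-Exos and 6.60 in LFD BAT-Exos. A count of 0 allows up to 7.11 in HFD vWAT-Exos and 4.09 in LFD vWAT-Exos, so on HFD no difference between the depots was detectable at this depth. On LFD the BAT-Exos value of miR-126b-5p rested on only 8 reads, and a difference between the depots was not tested. For the miR-221 hairpin, miR-221-3p over miR-221-5p was 89.3 (71.2 to 114) in HFD vWAT-Exos, 181 (150 to 221) in LFD vWAT-Exos, 570 (392 to 865) in HFD BAT-Exos and 252 (195 to 332) in LFD BAT-Exos, with wide intervals from the rare passenger strand.

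**Figure D4:**
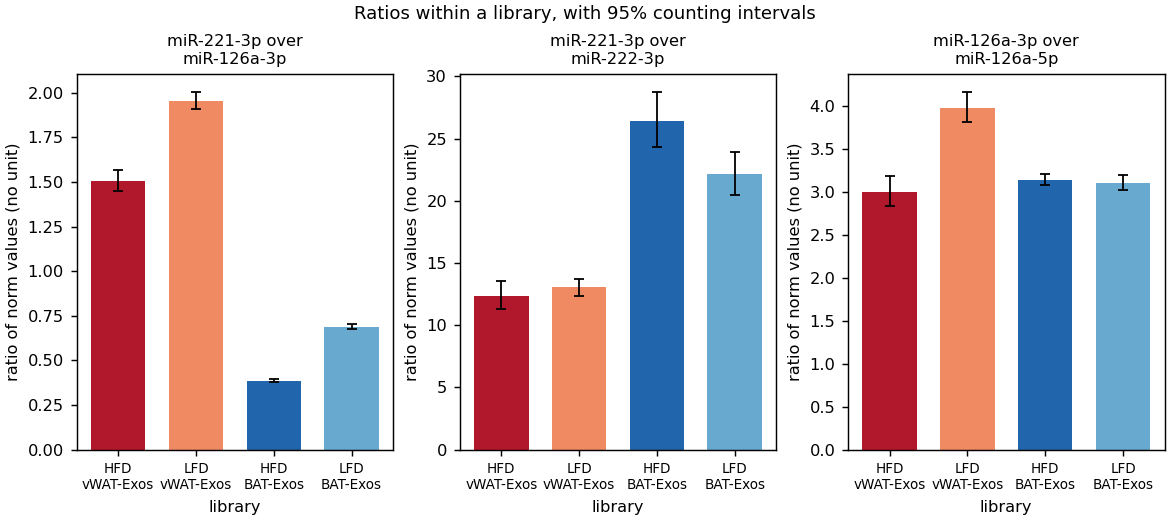
Ratio of the norm values of 2 strands within each of the 4 libraries (bars from 0, vertical axis without unit), with 95% counting intervals as error bars. miR-221-3p over miR-126a-3p is 1.51 and 1.95 in vWAT-Exos on HFD and LFD against 0.387 and 0.689 in BAT-Exos, miR-221-3p over miR-222-3p is higher in BAT-Exos, and miR-126a-3p over miR-126a-5p stands out in LFD vWAT-Exos at 3.97.

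The profile of miR-126a-3p over the 4 libraries was compared with those of 319 other mouse miRNAs that reached 100, by the Euclidean distance of log2(norm value + 1) centred on each miRNA's own mean. With 4 points that share their libraries this is a description of likeness alone. The nearest were miR-484 (distance 0.12), mir-29c-p5 (0.22), miR-872-3p (0.25), its own other strand miR-126a-5p (0.32) and miR-450a-5p (0.37). miR-484 had norm values of 4427, 5653, 10605 and 7214 in HFD vWAT-Exos, LFD vWAT-Exos, HFD BAT-Exos and LFD BAT-Exos. For miR-221-3p the nearest were let-7i-3p (0.27), miR-494-3p (0.33), mir-3068-p3 (0.33), miR-17-5p (0.36) and miR-150-3p (0.37). let-7i-3p had 218, 283, 136 and 153 in the same order. miR-222-3p, with the same seed and the adjoining precursor, came in place 62 at a distance of 0.95, and miR-126a-3p in place 175 at 1.85.

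Other miRNAs known from endothelial cells and vessel growth were taken from a list of 20 strands, of which 19 were analysed and 17 reached a norm value of 100 in each comparison. On HFD against LFD, 1 was at least 2-fold higher (miR-503-5p) and 1 lower (miR-132-3p) in vWAT-Exos, with a median log2 fold change of 0.13, and 0 passed the fold in BAT-Exos (median 0.30, range -0.69 to 0.74). In the order HFD vWAT-Exos, LFD vWAT-Exos, HFD BAT-Exos and LFD BAT-Exos, the most abundant, miR-23a-3p, which comes from a cluster known in vessel growth, had 169326, 121750, 162236 and 128769. miR-10b-5p, known for steering vessel sprouting in zebrafish, had 107379, 87706, 131716 and 109329, and its paralog miR-10a-5p had 57184, 52374, 160652 and 133868. miR-27b-3p, which promotes vessel sprouting, had 31735, 31492, 85988 and 79680. As deposited, 12 of the 17 strands had higher and 5 lower values on HFD than on LFD in vWAT-Exos, and 14 had higher and 3 lower values in BAT-Exos, by any amount. The share of all miRNAs on either side was not counted, so these counts have no background and are no result about the list. Other scalings were not run for these strands.

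Between the depots, the vessel list spread to both sides. In vWAT-Exos against BAT-Exos, 4 of 17 were at least 2-fold higher and 7 lower on HFD (median log2 fold change -0.91), and 3 higher and 8 lower on LFD (median -0.66), beside medians over all miRNAs of -0.27 and -0.19. Over all miRNAs, 30.6% were higher and 32.2% lower on HFD, and 23.4% and 29.4% on LFD. In the list, miR-130a-3p, miR-210-3p and miR-218-5p were the higher ones on either diet, and miR-23b-3p on HFD alone by this fold. The lower ones on either diet were miR-10a-5p, miR-15a-5p, miR-16-5p, miR-27b-3p, miR-92a-3p, miR-139-5p and miR-322-5p, and miR-503-5p on LFD alone. The strands were grouped here after their values were seen. miR-130a-3p, which promotes vessel growth, had 8102 in HFD vWAT-Exos and 4561 in LFD vWAT-Exos, against 1040 in HFD BAT-Exos and 847 in LFD BAT-Exos. Among the lower ones, miR-92a-3p had 6221 in HFD and 8111 in LFD vWAT-Exos, against 27093 in HFD and 23710 in LFD BAT-Exos. As deposited, 0 of 2 smooth muscle and pericyte miRNAs passed the fold between the depots on either diet. As a share of all mouse norm values, however, both together made up 2.96% of HFD vWAT-Exos against 1.29% of HFD BAT-Exos, and 2.45% of LFD vWAT-Exos against 1.35% of LFD BAT-Exos. miR-143-3p had 69824 in HFD and 51574 in LFD vWAT-Exos, against 62409 in HFD and 64880 in LFD BAT-Exos, and miR-145a-5p 13132 and 10862 against 10057 and 8756.

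Leukocyte and muscle markers also differed between the depots as deposited. Of the leukocyte miRNAs, 3 of 4 were at least 2-fold higher in vWAT-Exos on either diet, led in level by miR-142a-5p at 25079 in HFD vWAT-Exos and 20409 in LFD vWAT-Exos, against 650 in HFD BAT-Exos and 1469 in LFD BAT-Exos. The 3 were miR-150-5p and both strands of miR-142a, which share a hairpin. The remaining one, miR-223-3p, had 659 in HFD and 680 in LFD vWAT-Exos, against 633 in HFD and 1070 in LFD BAT-Exos. It was thus lower in vWAT-Exos on LFD. Striated muscle miRNAs were at least 2-fold lower in vWAT-Exos in 5 of 5 cases on HFD and in 3 of the 4 that reached 100 on LFD, and miR-208b-3p was listed at 0 in HFD vWAT-Exos. The erythroid miR-451a, which shares with miR-126 a known presence in blood, had 3796 and 2627 in HFD and LFD vWAT-Exos, against 13822 and 10738 in HFD and LFD BAT-Exos. By the same fold, 1 of the 2 erythroid miRNAs was higher and 1 lower in vWAT-Exos on HFD, and 0 were higher and 1 lower on LFD. Epithelial miRNAs were higher in vWAT-Exos in 6 of 6 cases on HFD, while on LFD 0 of the 4 that reached 100 were higher and 2 lower. Whether these cells carried any of the 5 members into the libraries was not tested.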

How the data were processed

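The miRNA sequencing of 4 libraries was analysed, 1 for each diet and depot. Per the labels, TruSeq small RNA libraries were sequenced and the reads cleaned with ACGT101-miR. The build named for these mouse samples, GRCh38, is human. The authors deposited a normalized signal per sequence and library, the norm value, headed as a normalized count. The sources do not describe its scaling. The table held 1640 entries with 1482 sequences, of which 697 carried a mouse name, and each was taken once. Log2 fold changes used a pseudocount of 1. miRNAs were counted as higher or lower at a fold of at least 2 and a norm value of at least 100 in 1 or both libraries, and the p threshold of the study was left out, since 1 library per group gives no test. Intervals are exact binomial, those of a fold between ratios use a normal approximation of the log, and all rest on approximate reads. All 5 members, their 5 nearest profiles and the most abundant of each list were named. The members and the 7 marker lists were chosen with earlier results of these data known. The counting of calls was checked on simulated libraries that held counting error alone. That check did not cover variation between libraries, differences in scaling, folds at the threshold or changes in rare strands. Alternatives changed the floor, the fold, the pseudocount, the scaling and the sequences counted. Python 3.11.15 was used with scipy 1.17.1, pandas 2.3.3 and numpy 2.4.6, and gene positions came from GENCODE release 21 of the mouse annotation.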

Additional observations from a re-analysis of the deposited data

Results flagged for a closer look

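The diet difference of miR-126a-3p went in opposite directions in the depots. The log2 fold change of HFD over LFD was -0.37 in vWAT-Exos and 0.68 in BAT-Exos for miR-126a-3p, and the vWAT-Exos value minus the BAT-Exos value was -1.05. For miR-221-5p the listed values also lay on opposite sides, at 0.27 in vWAT-Exos and -1.29 in BAT-Exos, a difference of 1.56. Its fold in vWAT-Exos had a counting interval that held 1 (0.888 to 1.64), so no direction was detectable there, and its BAT-Exos values came from 27 reads in HFD BAT-Exos and 58 in LFD BAT-Exos. The other strand of the miR-126a hairpin, miR-126a-5p, did not show opposite directions as deposited. Its log2 fold change was 0.04 in vWAT-Exos, where the counting interval of the fold held 1 (0.962 to 1.10), and 0.67 in BAT-Exos. None of these differences between the depots was tested, as there was 1 library per condition.

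Related sequences outside the 5 members were above the norm value that 3 reads stand for. They were miR-126b-5p at 4.94 in HFD BAT-Exos and 6.60 in LFD BAT-Exos, and miR-222-5p at 40.3 in HFD vWAT-Exos, 55.8 in LFD vWAT-Exos and 4.13 in LFD BAT-Exos. The predicted small RNA with the seed of miR-221-3p was at 19.0 in HFD vWAT-Exos.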

How the results depend on the processing

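With a fold of 1.5 in place of 2, 2 of the 5 strands were lower on HFD in vWAT-Exos (miR-221-3p and miR-222-3p), 2 were higher on HFD in BAT-Exos (both of miR-126a), and 1 was lower in vWAT-Exos than in BAT-Exos on LFD. With no norm value floor, 1 strand (miR-221-5p) was lower on HFD in BAT-Exos. Requiring 100 in both libraries left 1 higher in vWAT-Exos than in BAT-Exos on HFD. Scaling to equal sums, with or without miR-378a-3p and miR-21a-5p, left 0 lower there. Changing the pseudocount cannot turn the direction of a log2 fold change, so only the scalings bear on it. Of 20 log2 fold changes, 3 changed direction under scaling to equal sums. With miR-378a-3p and miR-21a-5p left out of the sums 2 did, and under median-of-ratios scaling 0 did. The changes were all of miR-126a and none of a strand past the fold. They were those of miR-126a-5p on HFD in vWAT-Exos (-0.10 under either scaling to sums), of miR-126a-3p between the depots on LFD (0.73 and 0.31) and of miR-126a-5p there (0.37 under equal sums). Over all miRNAs, equal sums gave 147 higher and 60 lower in vWAT-Exos than in BAT-Exos on HFD (94 and 99 as deposited), 166 and 39 on LFD (71 and 89), and 27 lower on HFD in vWAT-Exos (13). Without the 2 most abundant miRNAs in the sums, LFD had 131 and 56, and vWAT-Exos 21 lower on HFD. Depth limits miR-221-5p most. Leaving out a replicate could not be done with 1 library per group. No paired analysis was possible because the labels give no replicate numbers and each group has 1 library.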
